A study of Homo sapiens with 4 samples.

Results

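MHC class I molecules display peptides from inside the cell to CD8+ T cells. The peptides are cut by the proteasome, carried into the endoplasmic reticulum by the TAP1-TAP2 transporter, and loaded onto a heavy chain paired with the light chain B2M, with tapasin (TAPBP) as the bridge between transporter and heavy chain. PSMB8 and PSMB9 are catalytic subunits that replace their constitutive counterparts in the immunoproteasome, which favours peptides that fit class I. The genes are known for their induction by interferon and by NF-κB, and their loss is a known way for tumours to escape T cells. The present data concern 9 of these genes, chosen by symbol: HLA-B, HLA-C, HLA-F, B2M, TAP1, TAP2, TAPBP, PSMB8 and PSMB9, of 13165 genes with a value in the series.

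The cells were TPC1, an established line from a human papillary thyroid carcinoma, and RNA-seq was done on 2 groups with 2 libraries each. TPC1-INAVA cells stably expressed C1orf106, the older symbol of INAVA (innate immunity activator), and are labelled TPC1-C1orf106, whereas TPC1-Vector cells carried the empty vector. Both were retrovirally transduced, grown in DMEM with FBS and selected with puromycin at 0.5 μg/mL for 2 weeks, so each group was a separately selected stable line. Each gene has only 1 deposited value for the pair of libraries of a group, as FPKM (fragments scaled to transcript length and to the mapped fragments), so no error, no replicate check and no test of a difference can be given for any value below. Where a pair of levels is given, the first is TPC1-Vector and the second TPC1-INAVA.

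INAVA itself was at 7.96 and 123 FPKM, in the direction of the labels. Of the thyroid markers, PAX8 was at 60.1 and 55.7 FPKM and FOXE1 at 5.26 and 5.89 FPKM, while NKX2-1, TG and TSHR had no value under these symbols. Of the epithelial keratins, KRT18 was at 140 and 212 FPKM and KRT8 at 23.4 and 10.5 FPKM, and these neighbours share 1 deposited position. Leukocytes express class I and immunoproteasome genes strongly. Of their markers, CD14, LYZ and HLA-DRA had values, all under 1 FPKM in both groups, while PTPRC and CD3E had none under these symbols.

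The regulatory sequence of the genes is shown first, because the heavy chains, B2M and the transporter genes are known to share promoter elements for NF-κB and for interferon regulatory factors. RefSeq windows on GRCh38.p14 of 250 bases before the annotated start were found for all 9 genes. They were searched on both strands for a κB element (GGGNNTTNC) and for an interferon-stimulated response element (ISRE) in the spacings GAAANNGAA and GAANNGAAA, matches of which may overlap each other. Capitals in the sequences mark these matches, 5′ to 3′ on the strand of the gene. The windows shown are those of HLA-B and HLA-C, the members with the largest differences, and HLA-F as their more distant relative. Also shown are B2M as the most abundant member, TAP1 and TAPBP for the transporter and its bridge, and PSMB9, without a match in its window.
HLA-B, chr6:31357180-31357429, reverse strand: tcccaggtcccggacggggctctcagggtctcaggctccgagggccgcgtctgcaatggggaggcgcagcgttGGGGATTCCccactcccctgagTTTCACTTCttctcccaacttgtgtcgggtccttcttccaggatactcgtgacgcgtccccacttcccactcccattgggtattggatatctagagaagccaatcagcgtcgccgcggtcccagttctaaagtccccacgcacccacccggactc
HLA-C, chr6:31272093-31272342, reverse strand: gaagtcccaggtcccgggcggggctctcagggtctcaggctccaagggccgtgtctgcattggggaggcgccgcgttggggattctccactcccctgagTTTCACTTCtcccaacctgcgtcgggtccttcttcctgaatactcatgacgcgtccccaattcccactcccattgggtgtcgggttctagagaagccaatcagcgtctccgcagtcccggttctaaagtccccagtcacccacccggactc
HLA-F, chr6:29723184-29723433, forward strand: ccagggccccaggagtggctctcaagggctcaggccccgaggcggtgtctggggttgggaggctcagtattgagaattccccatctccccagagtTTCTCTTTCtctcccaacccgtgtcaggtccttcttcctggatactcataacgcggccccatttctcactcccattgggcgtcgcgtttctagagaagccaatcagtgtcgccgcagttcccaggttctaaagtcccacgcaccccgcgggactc
B2M, chr15:44711267-44711516, forward strand: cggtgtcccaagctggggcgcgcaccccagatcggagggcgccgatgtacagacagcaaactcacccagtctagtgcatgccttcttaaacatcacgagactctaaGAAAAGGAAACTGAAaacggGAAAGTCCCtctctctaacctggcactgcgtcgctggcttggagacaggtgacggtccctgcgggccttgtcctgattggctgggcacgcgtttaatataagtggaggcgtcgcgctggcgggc
TAP1, chr6:32853705-32853954, reverse strand: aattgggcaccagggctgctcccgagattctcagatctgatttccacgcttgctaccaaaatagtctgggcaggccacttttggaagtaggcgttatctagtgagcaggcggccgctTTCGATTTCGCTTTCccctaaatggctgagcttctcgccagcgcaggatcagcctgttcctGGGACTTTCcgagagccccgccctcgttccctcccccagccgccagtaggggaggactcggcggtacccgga
TAPBP, chr6:33314079-33314328, reverse strand: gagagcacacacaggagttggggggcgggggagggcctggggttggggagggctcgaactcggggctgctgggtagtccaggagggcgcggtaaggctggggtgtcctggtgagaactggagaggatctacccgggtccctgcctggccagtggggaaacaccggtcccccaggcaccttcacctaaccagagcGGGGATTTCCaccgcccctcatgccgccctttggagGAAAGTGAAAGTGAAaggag
PSMB9, chr6:32853942-32854191, forward strand: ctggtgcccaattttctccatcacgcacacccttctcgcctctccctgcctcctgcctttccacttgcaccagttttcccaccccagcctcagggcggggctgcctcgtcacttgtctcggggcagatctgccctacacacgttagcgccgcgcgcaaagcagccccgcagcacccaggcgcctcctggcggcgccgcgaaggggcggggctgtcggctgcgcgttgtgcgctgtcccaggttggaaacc

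The HLA-B window held 1 κB match, 177 to 169 bases before the start, and an ISRE match (GAANNGAAA) 155 to 147 bases before it. HLA-C held the same ISRE form 151 to 143 bases before the start and no match to the κB letters. The windows of HLA-B and HLA-C were identical at 89% of 254 aligned positions, and those of HLA-B and HLA-F at 79.8% of 253. HLA-F held the other ISRE form 155 to 147 bases before its start. In B2M a pair of overlapping ISRE matches ended 130 bases before the start, next to a κB match from 124 to 116, and TAP1 and TAPBP likewise held overlapping ISRE matches and the κB letters. TAP2 held both ISRE forms. PSMB8 and PSMB9 held no ISRE match, and PSMB8 held the κB letters before the second of its annotated starts. TAP1 starts on the opposite strand from the other end of the stretch before PSMB9. The TAP1 matches thus also lie before the PSMB9 start, but outside its window of 250 bases. Over the 11 windows of the 9 genes (TAP1 and PSMB8 have 2 starts each), 7 held either ISRE form and 5 the κB letters, whereas 12.4% and 14.2% of 35116 RefSeq windows of the same length did. These elements were searched because they are known in such promoters, so the larger share is no new evidence about the genes. The windows of HLA-B and HLA-C, alike at 89% of positions, are also not separate cases. A match is only a description of the reference letters, the windows are not those of the alleles of TPC1, and binding was not measured.

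The levels of the 9 genes spanned a wide range. B2M, the light chain, was the most abundant at 663 and 750 FPKM, and 88 of the genes tested had a higher mean. PSMB9 was the weakest, at 1.63 and 2.35 FPKM, and 15.3% of the genes tested had a lower mean. Among the others, HLA-C, HLA-B, TAP2, TAPBP, PSMB8 and TAP1 lay between 13.1 and 84.7 FPKM in both groups, and HLA-F at 2.18 and 3.04 FPKM.

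**Figure D1:**
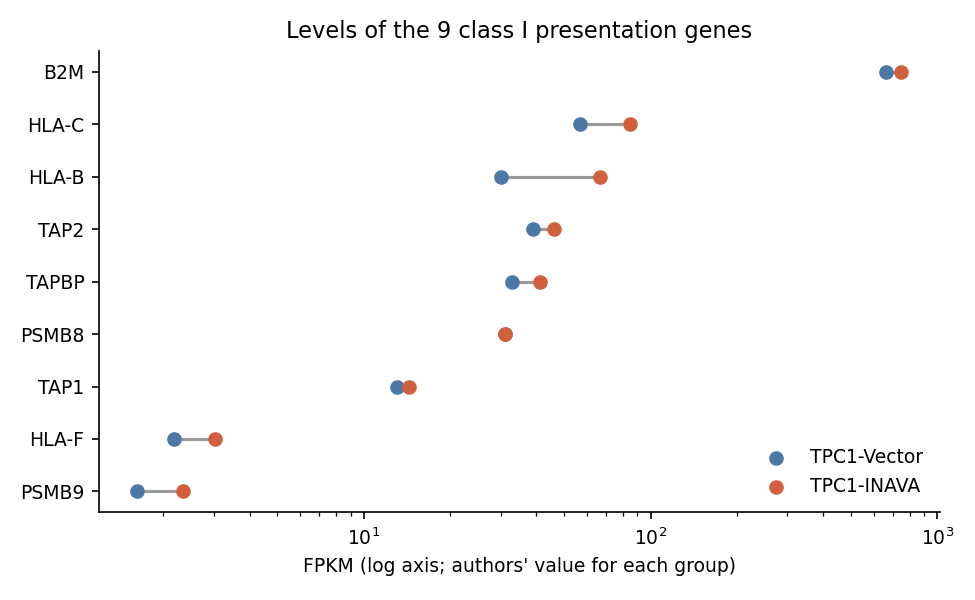
Levels of the 9 class I presentation genes in FPKM on a log axis, with blue points for TPC1-Vector, orange points for TPC1-INAVA and a grey line between them, 1 combined value per group and no error. All genes but PSMB8, whose points coincide at 31.1 FPKM, lie to the right in TPC1-INAVA, and the widest gap is that of HLA-B, from 30.1 to 66.8 FPKM.

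To ask how the genes differed between TPC1-INAVA and TPC1-Vector, the difference of log2(FPKM + 0.5) was taken, which understates the change of weak genes, over the 12305 genes whose mean of both groups reached 0.5 FPKM. All 9 members passed this filter. Of the 9, 8 were higher in TPC1-INAVA and 1 was lower, whereas 50.8% of all genes tested were higher and 49.2% lower. The median log2 fold change of the members was 0.32, against 0.0033 over all genes tested. A difference of at least 1.5-fold was reached by 1 member, HLA-B, and by none in the lower direction, against 2.24% of all genes tested higher and 1.45% lower. At a lower limit, a difference of 25% over the smaller value after 0.5 was added to both, 4 members were higher (HLA-B, HLA-C, HLA-F and PSMB9) and none lower, against 7.69% and 6.74% of all genes. TAPBP, with a log2 fold change of 0.319 against a limit of 0.322, was just outside it. By its FPKM values alone TAPBP was 25.1% higher, so 5 members passed this limit without the addition. The RNA came from whole cultures, so more RNA per cell and a larger share of high cells cannot be told apart.

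The heavy chains, which hold the peptide, differed most. HLA-B (chromosome 6, 31353875 to 31357179 on the reverse strand of GRCh38) was at 30.1 and 66.8 FPKM. This is a ratio of 2.22 and a log2 fold change of 1.14, at rank 54 from the top among the genes tested. Of the 2768 genes within 2-fold of the mean level of HLA-B, 0.145% had as large a log2 fold change or a larger one.

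HLA-C (31268749 to 31272092, reverse strand), the neighbouring classical heavy chain and a ligand of inhibitory receptors of natural killer cells, was at 57.0 and 84.7 FPKM. Its ratio of 1.49 and log2 fold change of 0.57 lay just under the 1.5-fold limit of 0.58, and 1.36% of 1985 genes of like level were as far up. HLA-F (29723434 to 29738532, forward strand), a nonclassical heavy chain, was at 2.18 and 3.04 FPKM, a ratio of 1.39 and a log2 fold change of 0.40. Of the 2604 genes of like level, 6.91% were as far up. It shares its deposited position with the antisense gene HLA-F-AS1, at 0.322 and 0.249 FPKM, and whether reads were assigned by strand was not given in the sources used here.

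Outside the members, HLA-E and HLA-H give the context. HLA-E, a nonclassical chain that presents leader peptides of other class I molecules, was at 32.0 and 37.3 FPKM (log2 fold change 0.22), and the pseudogene HLA-H at 1.12 and 1.28 FPKM (0.14). Both were higher in TPC1-INAVA and neither passed the 25% limit.

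Set against each other, HLA-B was at 0.529 times the level of HLA-C in TPC1-Vector and 0.790 times in TPC1-INAVA. HLA-B and HLA-C summed to 87.1 and 152 FPKM, a ratio of 1.74, and HLA-B made up 34.6% of this sum in TPC1-Vector and 44.1% in TPC1-INAVA. HLA-E was at 1.06 times the level of HLA-B in TPC1-Vector and 0.557 times in TPC1-INAVA, so the order of these 2 heavy chains was not the same in the groups. Such ratios compare genes within a group and do not depend on the scaling of a group as a whole.

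Class I genes are alike in sequence, and their reads can be assigned to the wrong copy. In the annotated transcripts of GENCODE release 29, 2.54% of the 50-base stretches of the longest coding HLA-B transcript also occurred in transcripts of the other class I genes searched, as did 6.71% of those of HLA-C and 1.51% of those of HLA-F. These shares count only stretches that match exactly over all 50 bases, and they hold for the reference alleles. Stretches that differ from another copy at a few bases are not counted in them. The part of allele differences of TPC1 from the reference in the values of HLA-B and HLA-C was not tested.

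B2M, on chromosome 15 (44711517 to 44718145, forward strand), pairs with every class I heavy chain. As given above, it was at 663 and 750 FPKM, a ratio of 1.13 and a log2 fold change of 0.18, and 16.2% of 130 genes of like level were as far up. B2M was at 7.61 times the sum of HLA-B and HLA-C in TPC1-Vector and 4.95 times in TPC1-INAVA.

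The genes of peptide transport and loading were higher by less. TAP1, 1 chain of the transporter, was at 13.1 and 14.4 FPKM, a ratio of 1.10 and a log2 fold change of 0.13. TAP2, the other chain, was at 39.0 and 46.0 FPKM, a ratio of 1.18 and a log2 fold change of 0.23. TAP2 was at 2.98 times the level of TAP1 in TPC1-Vector and 3.20 times in TPC1-INAVA. TAPBP was at 32.9 and 41.2 FPKM, 25.1% higher in TPC1-INAVA, and 5.18% of 3342 genes of like level were as far up. Of these 3 genes, TAPBP had the largest difference, and TAP1 lay well within the spread of genes of its level, 21.1% of which were as far up.

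Of the 2 immunoproteasome subunits, 1 had the same level in both groups. PSMB8 was at 31.1 FPKM in both groups, a log2 fold change of -0.0027. PSMB9, which shares a short intergenic stretch with TAP1, was at 1.63 and 2.35 FPKM, a ratio of 1.44 and a log2 fold change of 0.42. PSMB9 is the weakest member, and 7.11% of 2307 genes of like level were as far up. PSMB8 and TAP1 share 1 deposited position with the antisense gene PSMB8-AS1, at 0.545 and 0.324 FPKM, and whether fragments were divided among them was not tested.

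Each immunoproteasome subunit replaces 1 constitutive subunit, and their levels can be set against each other per length. PSMB8 was at 0.130 times the level of PSMB5 in TPC1-Vector and 0.124 times in TPC1-INAVA. PSMB9 was at 0.0086 times the level of PSMB6 in TPC1-Vector and 0.013 times in TPC1-INAVA. PSMB10, the third inducible catalytic subunit, was at 12.9 and 15.4 FPKM, or 0.0499 and 0.0614 times PSMB7. The constitutive subunit was thus the more abundant RNA of each pair in both groups.

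**Figure D2:**
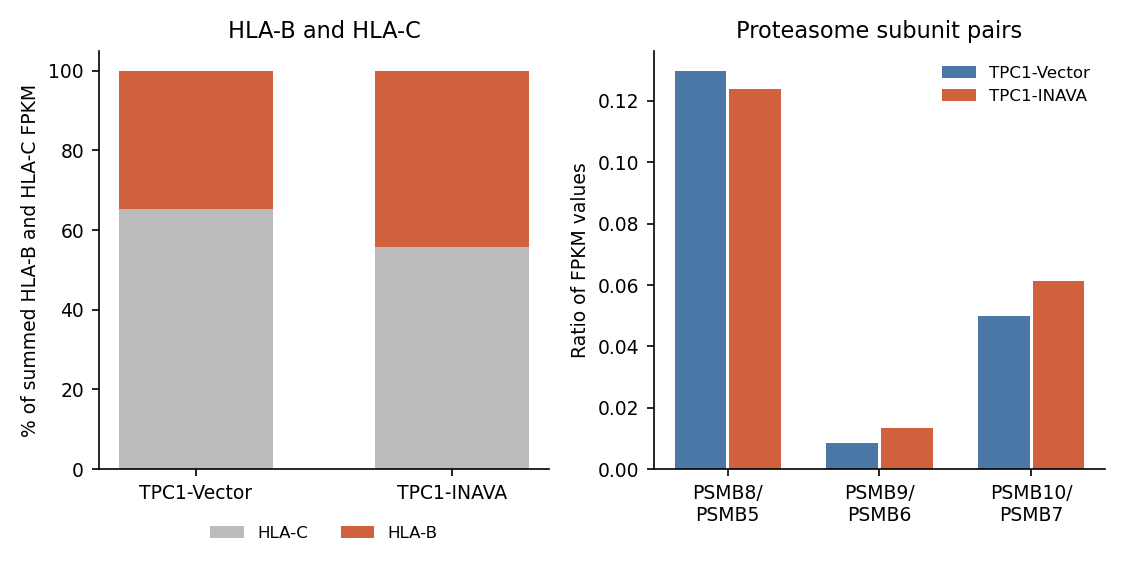
Left, share of HLA-B and HLA-C in their summed FPKM for each group, and right, ratio of each inducible proteasome subunit to its constitutive counterpart, 1 combined value per group and no error. HLA-B takes 34.6% of the left bar in TPC1-Vector and 44.1% in TPC1-INAVA, and all ratios on the right stay at or under 0.130.

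The rest of the pathway was compared as lists. Of 9 genes of peptide loading and trimming, 4 were higher and 5 lower, 0 passed the 25% limit, and the median log2 fold change was -0.035. The chaperones CALR (535 and 560 FPKM), CANX (237 and 230 FPKM) and PDIA3 (170 and 177 FPKM), which fold and load the heavy chain, were at log2 fold changes of 0.068, -0.046 and 0.064. The trimming peptidases ERAP1 and ERAP2 were at 14.8 and 13.7 FPKM and at 18.9 and 17.7 FPKM.

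Of the immunoproteasome partners, PSME1 and PSME2, which form the PA28 activator, were at 64.2 and 53.6 FPKM and at 91.8 and 95.9 FPKM, and the assembly factor POMP at 134 and 135 FPKM. The 14 constitutive subunits of the 20S proteasome had a median log2 fold change of -0.035, with 4 higher and 10 lower. PSMA7 alone passed the 25% limit, at 436 and 611 FPKM. Of 4 class I-like molecules with values, the stress-induced natural killer ligand MICA was at 18.2 and 23.6 FPKM (log2 fold change 0.37) and HFE, a regulator of iron uptake, at 6.09 and 4.72 FPKM (-0.34).

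The factors that act on class I promoters were not higher as a group. Of 13, 4 were higher and 9 lower, with 0 past the 25% limit in either direction and a median log2 fold change of -0.12. NLRC5, the class I transactivator, was at 2.50 and 2.04 FPKM (log2 fold change -0.24). NFYC, a subunit of the CCAAT-binding factor, was at 29.9 and 27.6 FPKM. The NF-κB subunit RELA was at 24.7 and 28.3 FPKM (0.19), and NFKB1 at 21.0 and 20.5 FPKM. IRF1, an interferon-induced activator of class I genes, was at 7.67 and 7.69 FPKM.

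Interferon signalling was compared in the same way, because interferon is the best known inducer of these genes. Of 10 genes of the receptors and their signalling, 3 were higher and 7 lower, with a median of -0.067. JAK1, a kinase of these receptors, was at 35.99 and 36.05 FPKM. Of 17 interferon-induced genes, 13 passed the filter, of which 6 were higher and 7 lower, with a median of -0.025 and 0 past 1.5-fold. Past the 25% limit, IFI27 and ISG15 were higher, while IFI35, IFIT1 and IFIT2 were lower. ISG15, a ubiquitin-like modifier, was at 18.4 and 24.6 FPKM, and IFIT2, which binds viral RNA, at 3.45 and 2.20 FPKM. GBP2, a guanylate-binding protein gene that was under the filter, was at 0.154 and 0.706 FPKM. Of the class II genes, HLA-DRA and CD74 passed the filter, at 0.562 and 0.695 FPKM and at 0.525 and 0.523 FPKM.

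**Figure D3:**
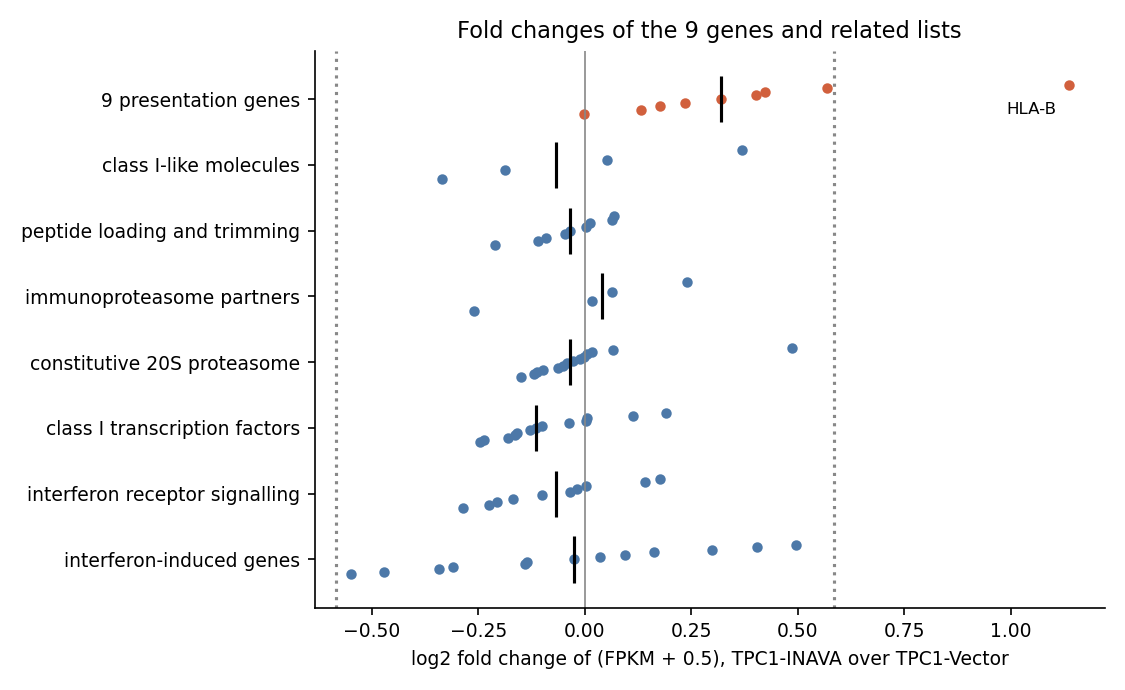
Log2 fold changes of the 9 members (orange) and of related lists (blue), 1 point per gene that passed the filter, with the list's median as a black bar and dotted lines at 1.5-fold. Only lists with more than 3 such genes are drawn. The class I heavy chains outside the members, among them HLA-E (0.22) and HLA-H (0.14), and the class II genes are therefore left out. The median of the 9 members is 0.32 and those of the promoter factors and of interferon receptor signalling are -0.12 and -0.067, and HLA-B is the only point past the right dotted line.

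As 8 of the 9 members lie in the MHC region of chromosome 6, their neighbours were compared. Between the start of HLA-F and the end of TAPBP, over 3.59 Mb, 81 other genes passed the filter, of which 46 were higher, and their median log2 fold change was 0.027. The 8 members of the region had a median of 0.36, and the 537 genes on the rest of chromosome 6 had -0.017. Past 1.5-fold, 2 other genes of the region were higher (LTB and EGFL8) and 1 was lower (SAPCD1-AS1), named after their values were seen. Among the 8 other genes within 250 kb of HLA-B and HLA-C, 5 were higher, and the median was 0.14. LTB, a ligand of the TNF family, was at 0.146 and 1.51 FPKM, and the abundant helicase gene DDX39B on the same side was at 179 and 177 FPKM.

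**Figure D4:**
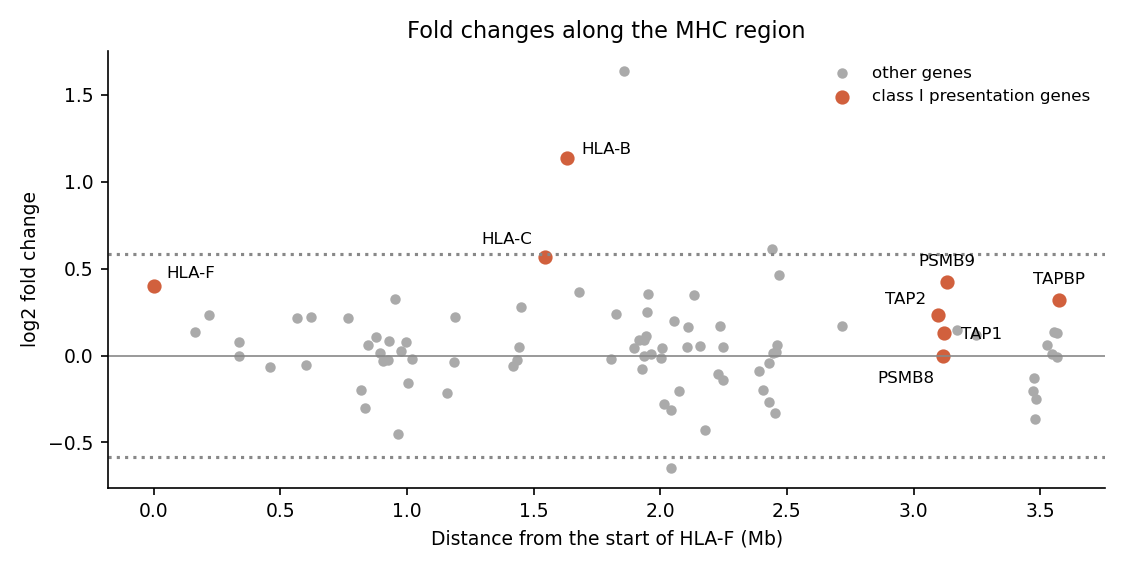
Log2 fold change of each gene that passed the filter against its distance in Mb from the start of HLA-F, members in orange and the 81 other genes in grey, with dotted lines at 1.5-fold. The median of the grey points is 0.027, and HLA-B at 1.14 and LTB at 1.64 are the highest points.

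The deposited positions of all 9 members lie on alternate contigs of GRCh38 and not on the primary chromosomes, 7 of them on the same alternate MHC haplotype, with TAPBP on another and B2M on an alternate contig of chromosome 15. Of all genes listed, 433 have such positions. The 377 of them that passed the filter and are not members had a median log2 fold change of 0.021, against 0.0027 for the 11919 genes on the primary chromosomes, and 2.39% of them were at least 1.5-fold higher, against 2.23%. How fragments that match both a contig and the primary chromosome were assigned is not given in the sources used here, and its part in the levels was not tested.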

How the data were processed

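TPC1 cells were profiled by RNA-seq in 4 libraries, 2 per group, grouped by the transfection label. The values deposited by the authors are in FPKM, with 1 per group for each gene, CASAVA, Cufflinks 2.1.1, Cuffdiff and the build hg38 are named in the submitters' processing notes. The aligner and annotation are not given in the sources used here. The labels and the methods name different library kits. The further columns hold the authors' own comparison (log2 ratio, p-value, q-value and direction) and were not used. Library depth is unknown, counting error cannot be given, and a limma fit could not be made on 1 value per group.

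Genes with a mean of both groups from 0.5 FPKM up were kept (12305 of 13165), and differences of log2(FPKM + 0.5) were taken and called at 1.5-fold. Members and lists were chosen with earlier results of these data known. All members are reported, with INAVA, list genes past the fold and up to 3 abundant genes of a list, besides others named for their role after their values were seen. Deposited starts count from 0, since adding 1 gave an annotated exon start for 6540 of 12732 genes on primary chromosomes, against 519 without. Positions printed are those of RefSeq on GRCh38.p14, matched by symbol. Some genes of the lists are not reported here. The calculation was tested on simulated data. Python 3.11.15, numpy 2.4.6, pandas 2.3.3, matplotlib 3.10.9 and biopython 1.88 were used.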

Additional observations from a re-analysis of the deposited data

How the results depend on the processing

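No paired analysis was possible because no values per library were among the columns used, and for the same reason leaving out each library was not run. Under pseudocounts of 0.1 and 1, no filter, a filter at a mean of 1 FPKM, median-of-ratios scaling, quantile normalization and, added after the data were seen, no pseudocount, each member kept its direction and its side of the 1.5-fold limit. HLA-B ranged from 1.11 to 1.15, HLA-C from 0.53 to 0.57, PSMB9 from 0.35 to 0.53 and HLA-F from 0.34 to 0.48. In each of these settings 8 members were higher. The share of all genes past 1.5-fold in the lower direction was 2.35% with a pseudocount of 0.1 and 2.67% without one, since a smaller pseudocount shrinks weak genes less. With the limit at 25% and 0.5 FPKM added, 4 members were higher, with 7.69% of all genes higher and 6.74% lower, and at 2-fold these shares were 0.61% and 0.244%. That count was 5 with 0.1 or nothing added, a comparison chosen after seeing the data, since the log2 fold change of TAPBP was then 0.322 and 0.323, and it was 4 with 1 FPKM added, under both scalings and under both other filters. The interferon-induced list had a median of -0.14 with the filter at 1 FPKM. This filter left out IFI27, OAS1 and OAS2, which were under 1 FPKM in both groups and higher in TPC1-INAVA. Without the depth, no counting error can be given for weak members such as PSMB9 and HLA-F.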
